A study of Mus musculus with 9 samples.

Results

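The genes described here encode the mitochondrial respiratory chain and the ATP synthase. They are the protein-coding genes whose symbols begin with Nduf, Uqcr, Sdha to Sdhd, Cox4 to Cox8, Atp5, mt-Nd, mt-Co, mt-Cytb or mt-Atp. Of 107 annotated genes with such names, 102 are in the deposited table and the other 5 were not analysed here. A value of at least 1 in at least 3 of 9 libraries was required, which 100 of the 102 reached, so that 100 of the 13771 genes tested are members. The nuclear genome encodes 87 of them and the mitochondrial genome 13.

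The respiratory chain passes electrons from NADH and succinate to oxygen through complexes I (NADH dehydrogenase), II (succinate dehydrogenase), III (cytochrome bc1) and IV (cytochrome c oxidase), and complex V (the ATP synthase) uses the resulting proton gradient to make ATP. Complex II is built from nuclear genes alone, while the others combine subunits of both genomes: the mitochondrial genes are transcribed inside the organelle as long precursors and encode core membrane subunits, and the nuclear genes are transcribed one by one. Quiescent blood stem cells are known for relying largely on glycolysis, and their entry into cycle and differentiation for a greater use of oxidative phosphorylation.

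RNA was sequenced from LSK cells, a bone marrow fraction with Sca-1 and c-Kit on its surface and no lineage markers, which contains stem and early progenitor cells. The cells were sorted by flow cytometry from parabiotic mice, which are pairs joined so that they share blood, and the mice were specific-pathogen-free. There were 3 groups of 3 libraries: circulating LSK cells (strain C57BL/6), irradiated LSK cells (strain C57BL/6) and endogenous LSK cells (strain B6SJL CD45.1). The series' design text says that the circulating cells are those that travelled into the marrow of an irradiated partner; the labels give no dose, age or time. The strain label differs between endogenous and the other libraries, so strain and group cannot be told apart there. The sample titles carry the codes DD1 to DD3 for both circulating and irradiated libraries and SJ1 to SJ3 for endogenous ones, with LSK1 for circulating and endogenous and LSK2 for irradiated libraries, and the labels do not explain them. The labels do not state whether the libraries within each group represent different mice; p-values therefore reflect only how far these libraries scatter, and that scatter may be technical.

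The depth recovered from the table ran from 14065855 estimated counts (circulating 2) to 27012345 (irradiated 2). Transcripts of the gate were present in every library: Kit had values of 327, 401 and 409.9 in circulating, 576, 562 and 622 in irradiated and 887, 1011 and 737 in endogenous libraries. It fell in circulating against endogenous libraries (log2 difference -1.20, SE 0.13, adjusted p = 0.00257; limma, adjusted over all genes tested). Ly6a, the Sca-1 gene, lay between 127 and 202 throughout. Of 8 lineage genes tested that the gate should leave out, 1 rose in circulating against endogenous libraries and none fell, and none passed in irradiated against endogenous ones. Over all genes tested 5.33% rose and 3.3% fell in the first comparison. The list summed to 72.9, 195 and 172 in circulating, 44.2 to 56.03 in irradiated and 64.3 to 95.7 in endogenous libraries, so that circulating 2 and 3 stood above all others.

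Transcripts of the nuclear-encoded members were mostly higher in circulating and in irradiated than in endogenous LSK cells. Over the 87 genes the median log2 difference was 0.48 for circulating and 0.41 for irradiated cells, where a log2 difference of 1 is a doubling. The medians of the 13 mitochondrially encoded members were 0.05 and -0.16 in the same comparisons. Values are the deposited normalised signal, and differences are on the log2(value + 1) scale, fitted with limma across all 9 libraries with Benjamini-Hochberg adjustment over 13771 genes. The circulating and irradiated differences share the endogenous libraries as their reference, so that they are not independent of each other. Over all genes tested the median log2 difference was -0.04 for circulating and -0.01 for irradiated against endogenous libraries. With library size as the scaling in place of the deposited one, all genes shifted to medians of -0.22 for circulating and -0.13 for irradiated cells. The nuclear members then had medians of 0.27 and 0.28, and the mitochondrially encoded ones of -0.15 and -0.30, a change of sign for circulating cells. The mitochondrial median of circulating cells also changed sign when single libraries were left out, to -0.11 without circulating 1, -0.01 without endogenous 1 and -0.03 without endogenous 3, and was 0.16 without endogenous 2 and 0.09 without circulating 2.

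**Figure D1:**
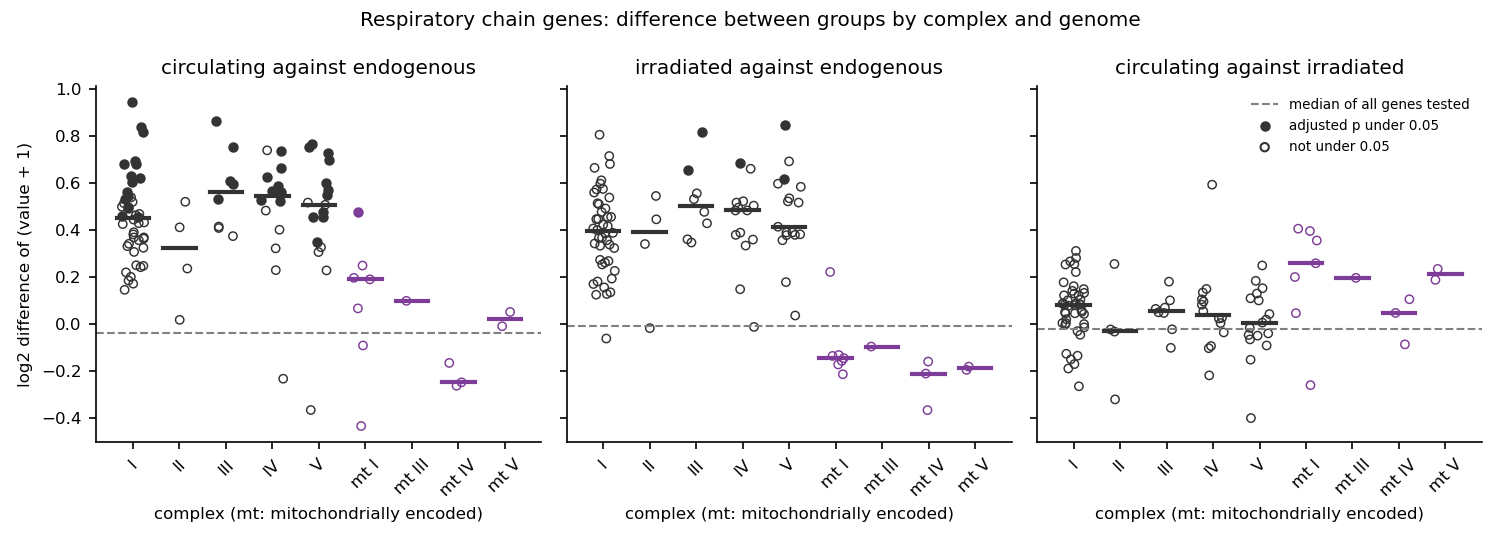
Log2 difference of every member in the 3 comparisons (vertical axis, log2 of value + 1), by complex and genome of origin (horizontal axis; mt marks mitochondrially encoded members). Filled points have an adjusted p under 0.05, bars are medians and the dashed line is the median of all genes tested. Nuclear members of complexes I to V have medians between 0.32 and 0.56 against endogenous libraries in circulating cells, and the filled points stand almost all among them; all 3 mitochondrially encoded complex IV genes lie below 0 there.

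In circulating against endogenous libraries, 40 of the 87 nuclear members rose and none fell under limma, while 5.33% of all genes tested rose and 3.3% fell, or 8.63% together. The other 47 did not pass. The difference was positive in 85 of 87, as in 47% of all genes tested, and 70 had an unadjusted p under 0.05, as had 26.7%. In 65 every circulating library lay above every endogenous one, a pattern that 14.6% of all genes tested showed; the opposite pattern, shown by 12.9%, was found in none. Of the 13 mitochondrially encoded members, 1 rose and none fell. By complex, the nuclear genes that rose were 16 of 44 in complex I, 0 of 4 in II, 5 of 8 in III, 8 of 14 in IV and 11 of 17 in V. The count over the nuclear members depends on single libraries. It was 43, 33 and 17 without circulating 1, 2 and 3, and 20, 21 and 21 without irradiated 1, 2 and 3. It was 6, 12 and 17 without endogenous 1, 2 and 3. Each omission leaves fewer libraries from which to estimate the spread. The median of the nuclear members stayed between 0.42 and 0.50 under these omissions. Under library size scaling 13 rose, and when only circulating and endogenous libraries were fitted 6 did.

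Summed over each complex, the nuclear members of all 5 complexes were higher in every circulating and irradiated library than in every endogenous one. The 44 complex I genes summed to 5409.5, 5465 and 6174 in circulating, 5511, 5359.8 and 5456 in irradiated and 3828, 4252 and 4162 in endogenous libraries. The 14 complex IV genes summed to 2822, 2848 and 2877 in circulating libraries, 2802, 2813 and 2677 in irradiated libraries and 1815, 2094 and 2147 in endogenous ones. The mitochondrially encoded complex IV sum was 12676, 9961 and 10418 in circulating, 11195, 11627 and 9694 in irradiated and 11594, 14879 and 12602 in endogenous libraries, so that the groups overlapped. In bulk samples such as these, a change in the share of cells of a type and a change in RNA per cell cannot be told apart.

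**Figure D2:**
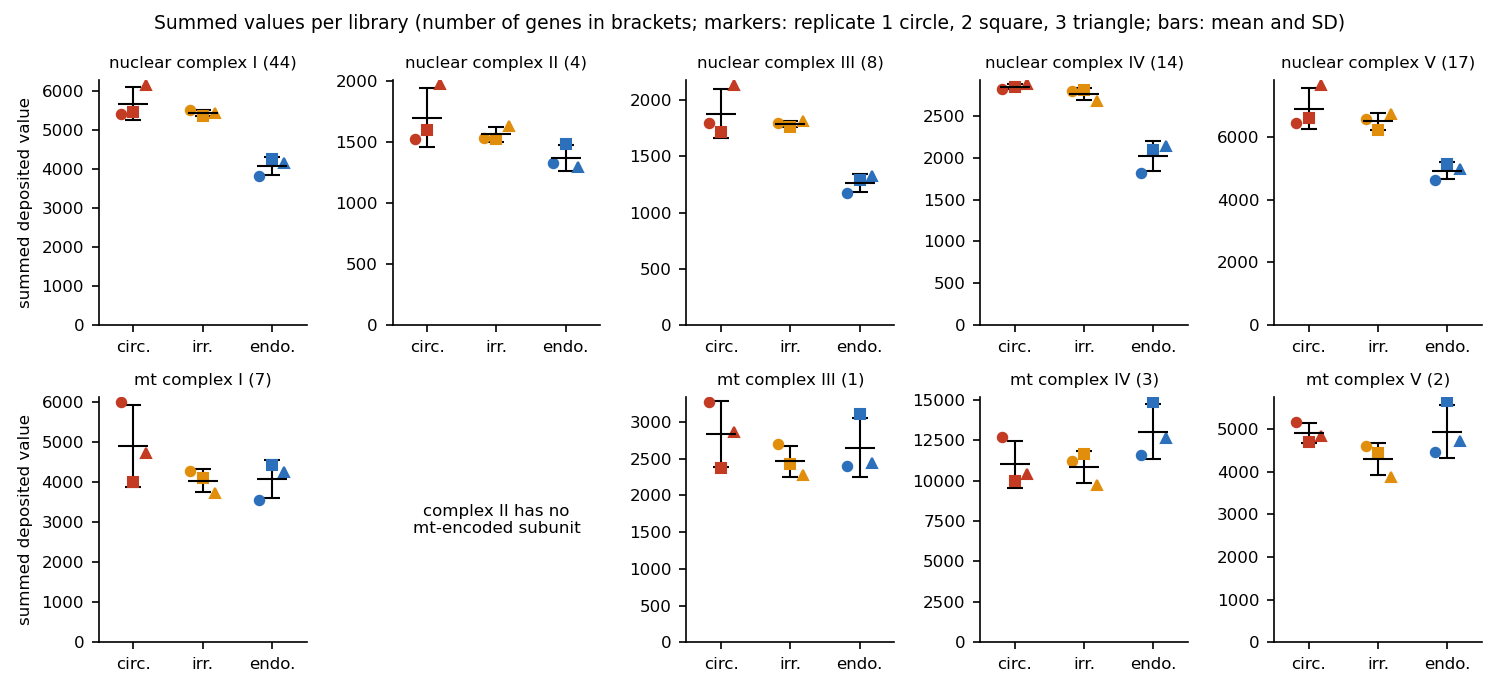
Summed deposited value per library (vertical axis, normalised signal, from 0) for the nuclear-encoded genes of each complex (upper row) and the mitochondrially encoded ones (lower row), with the number of genes in brackets, in circulating, irradiated and endogenous libraries; bars are mean and SD (n = 3). Nuclear complex I sums to 5683 ± 426 in circulating, 5442 ± 76.6 in irradiated and 4081 ± 223 in endogenous libraries, and in no nuclear panel does an endogenous library reach a circulating or irradiated one, whereas in the mitochondrial panels both of these groups overlap the endogenous one.

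Markers of cell division, of maturing progenitors and of some lineages also differed between circulating and endogenous libraries. Over all genes tested 5.33% rose and 3.3% fell in that comparison. Of 15 G2/M and mitosis genes, 12 rose in circulating against endogenous libraries, with sums of 3305 to 5236 in circulating, 3380 to 4125 in irradiated and 2106 to 2273 in endogenous libraries, and none was at 0. Of 10 granulocyte-monocyte progenitor genes, 6 rose, with sums of 13015 to 39407 in circulating, 7789 to 16332 in irradiated and 2215 to 3151 in endogenous libraries. Of 7 stem cell genes tested, 4 fell, with sums of 344 to 475 in circulating, 542 to 561 in irradiated and 747 to 852 in endogenous libraries. Of 6 B lineage genes tested 2 rose, among them Cd79a, a part of the B cell receptor (log2 difference 2.37, SE 0.54, adjusted p = 0.0262). The B lineage sums were 104, 285 and 215 in circulating, 83.5 to 107 in irradiated and 74.6 to 101 in endogenous libraries, and Vpreb1 and Igll1 had no count in circulating 1. Of 10 erythroid genes, the transcription factor genes Gata1 (log2 difference 1.90, SE 0.50, adjusted p = 0.0409) and Klf1 (log2 difference 2.11, SE 0.57, adjusted p = 0.0435) rose, with sums of 220.1 to 581 in circulating, 165 to 289 in irradiated and 159 to 323 in endogenous libraries. The erythroid list went both ways, with 5 positive and 5 negative differences from -2.11 to 2.11 (median 0.28). Of 6 megakaryocyte genes tested, 1 fell and none rose, with 3 positive and 3 negative differences. The megakaryocyte sums were 116 to 305 in circulating, 273 to 343 in irradiated and 325 to 481 in endogenous libraries. The part of all these genes in the differences of the respiratory chain was not tested.

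The promoters of some members that rose are shown with the motifs of factors known to bind respiratory chain promoters, so that the letters upstream of genes described below stand beside their values. RefSeq windows of the 250 bases before the transcription start (GRCm38.p6) were matched by symbol for 73 of the 87 nuclear members, giving 78 windows. Capitals mark a match on either strand to the NRF1 motif, searched as GCGCA, any base and GCGC, or to CCGGAAG, the ETS motif that the factor GABP also binds. An ETS match on the other strand reads CTTCCGG. The first 4 genes rose in circulating against endogenous cells and are the 2 with the lowest p for each motif among members with a single window; Cox7a2l is the complex IV member of the nuclear genome with a negative difference. The sequences run 5′ to 3′ on the strand of the gene.
Ndufs5 (chr4:123718187-123718436, minus strand): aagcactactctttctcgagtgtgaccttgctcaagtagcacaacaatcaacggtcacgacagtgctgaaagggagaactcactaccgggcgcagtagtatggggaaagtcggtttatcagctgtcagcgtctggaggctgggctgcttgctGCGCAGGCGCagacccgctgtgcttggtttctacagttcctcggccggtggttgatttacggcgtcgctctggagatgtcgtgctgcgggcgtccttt
Cox6a1 (chr5:115348959-115349208, minus strand): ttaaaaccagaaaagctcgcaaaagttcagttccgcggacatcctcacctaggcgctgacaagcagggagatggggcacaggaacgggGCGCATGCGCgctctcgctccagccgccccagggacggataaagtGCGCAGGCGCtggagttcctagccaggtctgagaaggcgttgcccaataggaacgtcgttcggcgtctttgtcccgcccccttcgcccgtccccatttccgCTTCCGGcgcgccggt
Uqcr11 (chr10:80406822-80407071, minus strand): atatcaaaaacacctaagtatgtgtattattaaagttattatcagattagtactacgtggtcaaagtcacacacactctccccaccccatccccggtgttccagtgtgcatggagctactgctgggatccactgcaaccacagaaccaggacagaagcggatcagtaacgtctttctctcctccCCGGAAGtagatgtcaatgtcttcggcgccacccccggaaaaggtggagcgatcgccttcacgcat
Ndufb7 (chr8:83566508-83566757, plus strand): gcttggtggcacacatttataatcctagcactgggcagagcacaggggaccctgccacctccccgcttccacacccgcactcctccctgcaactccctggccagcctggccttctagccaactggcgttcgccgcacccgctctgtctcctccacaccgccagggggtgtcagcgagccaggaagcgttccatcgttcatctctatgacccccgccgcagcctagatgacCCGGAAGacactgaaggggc
Cox7a2l (chr17:83514334-83514583, minus strand): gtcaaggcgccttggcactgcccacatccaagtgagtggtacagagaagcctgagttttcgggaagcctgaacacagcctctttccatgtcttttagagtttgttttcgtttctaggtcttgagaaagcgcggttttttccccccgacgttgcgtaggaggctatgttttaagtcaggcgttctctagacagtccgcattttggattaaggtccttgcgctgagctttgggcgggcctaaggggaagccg
The Ndufs5 window holds 1 NRF1 match, the Cox6a1 window 2 NRF1 matches and 1 ETS match, the Uqcr11 and Ndufb7 windows 1 ETS match each, and the Cox7a2l window neither.

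The NRF1 motif was found in 15 of the 78 windows of nuclear members (19.2%), in 7.96% of the 12631 windows of genes tested and in 3.74% of all 32851 windows of that length. The ETS motif was found in 14 (17.9%) against 13.6% and 6.91%. Both motifs were searched on both strands. Matches of the different motifs can share at most an end base, and 26 member windows (33.3%) held at least 1 of them. Members with and without a match are found among those that rose: Atp5k and Ndufa11, which rose, and Sdha, Ndufb4 and Atp5g2, which did not pass, have NRF1 matches, while Ndufa10 and Cox5b, which rose, have no match of either kind. A match describes letters in a window and shows no binding.

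Complex I is the entry point for electrons from NADH. Its nuclear genes encode 7 core subunits that carry flavin and iron-sulphur centres, 29 supernumerary subunits around them and, among the Nduf names, 8 assembly factors that do not stay in the finished complex. In circulating against endogenous libraries 14 of the 29 supernumerary genes rose (median 0.47) and 2 of the 7 core genes (median 0.39). None of the 8 assembly factors did (median 0.22), while 5.33% of all genes tested rose. All 8 had positive differences. Their mean values were low, from 16.6 (Ndufaf5) to 66.0 (Ndufaf4), where the median of the nuclear members was 125. Their SEs ran from 0.17 (Ndufaf7) to 0.28 (Ndufaf8), against a nuclear median of 0.14. Whether the classes differ apart from level and spread was not tested.

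Ndufa1, a small membrane subunit needed for assembly of complex I, had the lowest p of all members. Its values were 141, 169.8 and 167 in circulating, 143, 126 and 124 in irradiated and 74.6, 88.2 and 84.02 in endogenous libraries. All 6 circulating and irradiated libraries lay above all 3 endogenous ones, and Ndufa1 rose in circulating cells (log2 difference 0.94, SE 0.14, adjusted p = 0.00592). The adjusted p was at most 0.0303 when any 1 library was left out. Ndufb7, a subunit on the intermembrane side of the membrane arm, had values of 108, 129 and 137 in circulating libraries, 113, 119.6 and 114 in irradiated and 64.5, 71.2 and 74.7 in endogenous ones. It too rose in circulating cells with no overlap (log2 difference 0.82, SE 0.14, adjusted p = 0.00981; at most 0.0469 with any 1 library left out). Ndufa10, a subunit of the membrane arm's matrix side, averaged 254 ± 25.5 in circulating against 158 ± 11.4 in endogenous libraries (SD, n = 3 each). It rose (log2 difference 0.68, SE 0.13, adjusted p = 0.0128) and was no longer called without endogenous 1 (adjusted p = 0.0528).

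Ndufs5, whose promoter is printed above, had 95.7, 98.8 and 119 in circulating libraries, 84.1, 85.6 and 89.5 in irradiated libraries and 48.4, 58.8 and 67.6 in endogenous libraries. Circulating values lay above all irradiated values, and these above all endogenous values, and the difference between circulating and endogenous libraries passed the test (log2 difference 0.84, SE 0.16, adjusted p = 0.0152). The core genes that rose were Ndufv1, the subunit that binds NADH and the flavin (log2 difference 0.62, SE 0.14, adjusted p = 0.0232), and its partner Ndufv2 (log2 difference 0.54, SE 0.13, adjusted p = 0.0333). Ndufv1 averaged 215 ± 38.2 in circulating and 138 ± 2.25 in endogenous libraries (SD, n = 3 each). The core genes Ndufs1, Ndufs3, Ndufs7 and Ndufs8 had positive differences of at least 0.30 that did not pass. The remaining supernumerary genes that rose were Ndufa3, Ndufa8, Ndufa11, Ndufab1, Ndufb6, Ndufb8, Ndufb10, Ndufc1, Ndufs6 and Ndufv3, with log2 differences from 0.45 (Ndufa8) to 0.69 (Ndufs6). Ndufab1 is the mitochondrial acyl carrier protein and serves fatty acid synthesis as well. Ndufa12 had the highest p of complex I among circulating and endogenous libraries outside the assembly factors (log2 difference 0.22, SE 0.18, adjusted p = 0.457). Its values were 161, 111 and 145 in circulating and 96.2, 138 and 124 in endogenous libraries, which overlapped.

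Among the assembly factors, Ndufaf6 had 30.7, 21.4 and 36.3 in circulating, 35.1, 31.5 and 38.4 in irradiated and 18.4, 22.01 and 18.5 in endogenous libraries. Circulating 2 lay inside the endogenous range and the irradiated libraries above it, and neither difference passed. For circulating against endogenous cells it was 0.54 (SE 0.24, adjusted p = 0.174), and for irradiated cells 0.80 (SE 0.24, adjusted p = 0.147). Ndufaf2 averaged 28.7 ± 7.68 in circulating and 22.4 ± 3.63 in endogenous libraries, and Ndufaf7 averaged 60.04 ± 5.20 in circulating and 50.9 ± 6.64 in endogenous libraries (SD, n = 3 each). Ndufaf4 was the nuclear member with the lowest difference in irradiated against endogenous libraries, -0.06 (SE 0.19). Of 9 complex I assembly factors with other names (Acad9, Ecsit, Timmdc1 and others), none passed in any comparison and the median for circulating against endogenous libraries was 0.11.

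Complex II feeds electrons from succinate into the chain and is at the same time an enzyme of the citric acid cycle. None of its 4 genes passed in any comparison. Sdhd, a membrane anchor, had 264, 282 and 413 in circulating, 297, 312 and 349.7 in irradiated and 219, 217 and 219 in endogenous libraries. All endogenous values lay below the others (log2 difference 0.52, SE 0.16, adjusted p = 0.0675 for circulating against endogenous). Sdhb, the iron-sulphur subunit, was likewise without overlap (log2 difference 0.41, adjusted p = 0.0586 for circulating and 0.44, 0.122 for irradiated against endogenous). Sdha, the flavin subunit, had 907, 925 and 1129 in circulating, 808, 779.5 and 887 in irradiated and 798, 947 and 771 in endogenous libraries, with log2 differences of 0.23 for circulating and -0.02 for irradiated against endogenous cells.

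Sdhc, the other anchor, had 80.7, 85.95 and 83.9 in circulating, 108, 100.2 and 106 in irradiated and 81.8, 82.5 and 83.5 in endogenous libraries. Here the irradiated libraries stood above both other groups, and circulating and endogenous libraries overlapped. Sdhc had the lowest unadjusted p of a nuclear member in circulating against irradiated libraries and did not pass (log2 difference -0.32, SE 0.13, adjusted p = 0.38). In circulating against endogenous libraries it had the highest p of complex II (log2 difference 0.02, SE 0.13, adjusted p = 0.952), with a 95% interval of -0.26 to 0.29. Of the 4 complex II assembly factors Sdhaf1 to Sdhaf4, whose names fall outside the rule as applied, none passed and the median difference between circulating and endogenous libraries was -0.15.

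Complex III passes electrons from ubiquinol to cytochrome c. Of its 8 nuclear genes, Uqcrq, Uqcr11, Uqcrb, Uqcrc1 and Uqcr10 rose in circulating against endogenous cells, and Uqcrq and Uqcr11 rose in irradiated against endogenous cells as well. Uqcrq, a small subunit next to cytochrome b, had 110.1, 114 and 138 in circulating, 111, 117 and 121 in irradiated and 64.3, 69.6 and 63.5 in endogenous libraries, so that no endogenous library came near the others. Its log2 difference against endogenous cells was 0.86 for circulating (SE 0.14, adjusted p = 0.00806) and 0.82 for irradiated cells (SE 0.14, adjusted p = 0.0245). Uqcr11, the smallest subunit, had 216, 193 and 213 in circulating libraries, 199.5, 192 and 189 in irradiated libraries and 113, 123 and 132 in endogenous libraries, again with endogenous cells lowest. It differed from endogenous cells by 0.75 in circulating (SE 0.12, adjusted p = 0.00789) and by 0.66 in irradiated cells (SE 0.12, adjusted p = 0.0333). Both kept their call in circulating against endogenous cells with any 1 library left out, at adjusted p of at most 0.0401 for Uqcrq and 0.0392 for Uqcr11. Their calls in irradiated against endogenous cells were lost without each irradiated or endogenous library, at up to 0.168 for Uqcrq and 0.214 for Uqcr11.

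Uqcrb, a subunit on the matrix side, averaged 293 ± 22.3 in circulating, 258 ± 3.15 in irradiated and 192 ± 22.04 in endogenous libraries (SD, n = 3 each). It rose in circulating against endogenous cells (log2 difference 0.61, SE 0.12, adjusted p = 0.0169) and lost its call without endogenous 1 (0.0669). Uqcrc1, a large core protein, averaged 597 ± 109.8 in circulating and 392 ± 8.29 in endogenous libraries (log2 difference 0.59, SE 0.12, adjusted p = 0.0201). Uqcrfs1, the Rieske iron-sulphur protein, had 155, 140.3 and 212 in circulating and 112, 134 and 140.4 in endogenous libraries; circulating 2 lay inside the endogenous range, and the difference of 0.37 did not pass (adjusted p = 0.184). Cyc1, the cytochrome c1 subunit of complex III, whose name the rule does not match, had 175, 175 and 264 in circulating, 186, 141 and 205 in irradiated and 114, 90.7 and 98.5 in endogenous libraries. Its level rose in circulating against endogenous cells (log2 difference 0.99, SE 0.19, adjusted p = 0.0158). Cycs, the mobile carrier cytochrome c itself, had 131, 171 and 199 in circulating, 124, 112 and 141 in irradiated and 72.2, 75.4 and 94.2 in endogenous libraries. It rose too (log2 difference 1.03, SE 0.18, adjusted p = 0.0103). Hccs, which attaches the haem to both, did not pass (log2 difference 0.24, SE 0.28, adjusted p = 0.627), so that 2 of these 3 genes rose. Of 6 complex III assembly factors 1 rose, Uqcc2 (log2 difference 0.62, SE 0.16, adjusted p = 0.0418), and none passed in the other comparisons. Over all genes tested, 5.33% rose in circulating against endogenous libraries.

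Complex IV reduces oxygen to water. Cox5b, a zinc-binding subunit, had 215, 217 and 214 in circulating, 198, 194 and 190.1 in irradiated and 135, 128 and 144 in endogenous libraries. The 3 groups did not overlap, with circulating highest and endogenous lowest, and Cox5b rose in circulating against endogenous cells (log2 difference 0.66, SE 0.11, adjusted p = 0.00828; at most 0.0416 with any 1 library left out). Cox5a, a matrix-side subunit, had 219.8, 246 and 219 in circulating, 219.9, 214 and 226 in irradiated and 121, 129 and 162 in endogenous libraries. It rose against endogenous cells in circulating (log2 difference 0.74, SE 0.13, adjusted p = 0.0112) and irradiated cells (0.68, SE 0.13, adjusted p = 0.0475). The first of these calls was lost without endogenous 1 (adjusted p = 0.0514), and the second without each irradiated library, endogenous 1 or endogenous 2, at up to 0.23. Cox6c and Cox7b also rose in circulating cells, at log2 differences of 0.59 and 0.63.

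Several complex IV subunits have tissue-specific isoforms, and in these cells the general ones held most of the signal. Muscle isoforms were highest in circulating 1, as given below. Cox4i1 had 364, 384 and 448 in circulating, 382, 379 and 365 in irradiated and 255, 268 and 283 in endogenous libraries, while Cox4i2, its lung isoform, was at 0.249 to 1.296 in the 9 libraries and under the filter. Cox4i1 rose in circulating cells (log2 difference 0.56, SE 0.11, adjusted p = 0.0161), which was lost without endogenous 1 (0.0658) and endogenous 2 (0.0536). Cox6a1, with its promoter shown above, had 184, 238 and 235 in circulating, 236, 229 and 234 in irradiated and 137, 148 and 157 in endogenous libraries. It rose in circulating against endogenous cells (log2 difference 0.56, SE 0.13, adjusted p = 0.028), as did Cox6b1 (log2 difference 0.53, SE 0.13, adjusted p = 0.0315) and Cox7a2 (log2 difference 0.52, SE 0.13, adjusted p = 0.0358). Of these last calls, Cox6a1 was lost without all but circulating 1 and irradiated 2, Cox6b1 without all but circulating 1 and 2, and Cox7a2 without all but circulating 1, at adjusted p of at most 0.101, 0.115 and 0.124.

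Cox6a2, the heart and muscle isoform, had 39.8, 7.62 and 9.21 in circulating, 11.7, 12.99 and 4.93 in irradiated and 5.35, 5.31 and 18.3 in endogenous libraries. Circulating 1 was far above the rest, and the difference did not pass (log2 difference 0.74, SE 0.63, adjusted p = 0.49 for circulating against endogenous). Cox7a1, the muscle isoform and the other gene under the filter, was 20.04, 0.0376 and 0.311 in circulating, 1.46, 0.237 and 0.635 in irradiated and 0.720, 0.684 and 0.135 in endogenous libraries, again with circulating 1 apart. Cox6b2, the testis isoform, averaged 18.9 ± 6.22 in circulating, 19.8 ± 1.35 in irradiated and 15.5 ± 0.736 in endogenous libraries (SD, n = 3 each). It had the highest p of the nuclear complex IV members for circulating against endogenous cells (log2 difference 0.23, SE 0.27, adjusted p = 0.626). Per kilobase of annotated exon length, the level of Cox6a1 was 285 and that of Cox6a2 18.8, and Cox6b1 had 320 against 16.3 for Cox6b2.

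Cox8a, the general isoform of that subunit, had 155, 154 and 174 in circulating and 119, 126 and 142 in endogenous libraries without overlap and did not pass (log2 difference 0.32, SE 0.12, adjusted p = 0.124). Ndufa4, named for complex I but known to be a complex IV subunit and counted there, had 503, 461 and 439.9 in circulating, 483, 482 and 419 in irradiated and 312, 405 and 352 in endogenous libraries. Neither group overlapped the endogenous one, and the difference did not pass (log2 difference 0.40, SE 0.12, adjusted p = 0.0678 for circulating). Cox7a2l, which joins complexes III and IV into supercomplexes, was the nuclear complex IV member with a negative difference between circulating and endogenous cells (log2 difference -0.23, SE 0.16, adjusted p = 0.379). It had 136, 100.4 and 94.8 in circulating, 128, 139.9 and 115 in irradiated and 118, 132 and 136 in endogenous libraries, which overlapped through circulating 1. Of 23 complex IV assembly factors 1 rose in circulating against endogenous cells. That is 4.35%, near the 5.33% of all genes tested that rose. It was Cox17, the copper carrier (log2 difference 0.67, SE 0.16, adjusted p = 0.0319). Cox17 had 65.2, 63.4 and 76.5 in circulating, 47.2, 53.6 and 53.5 in irradiated and 40.3, 45.5 and 42.00 in endogenous libraries. None of the others passed in any comparison, and the median for circulating against endogenous libraries was 0.28.

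Complex V consists of the catalytic F1 head and the membrane Fo part with its stalks. In circulating against endogenous cells 9 of the 11 nuclear Fo and stalk genes rose and 2 of the 5 F1 genes, while 5.33% of all genes tested rose. All 11 and all 5 had positive differences, with medians of 0.55 and 0.35. Circulating libraries lay above endogenous ones without overlap in 10 of the 11 and 4 of the 5, against 14.6% of all genes tested. Whether the 2 parts differ was not tested. Atp5b, the catalytic beta subunit, had 2149, 2261 and 2700.1 in circulating, 2142, 1845 and 2272 in irradiated and 1576, 1612 and 1576 in endogenous libraries, which lay below all others. It rose in circulating against endogenous cells (log2 difference 0.57, SE 0.11, adjusted p = 0.0135), a call lost without endogenous 1 at 0.0556. Atp5c1, the gamma subunit, was the other F1 gene that rose (log2 difference 0.35, SE 0.10, adjusted p = 0.0478). Atp5o, which ties the stalk to the head, averaged 236 ± 18.4 in circulating, 233 ± 3.14 in irradiated and 156 ± 15.1 in endogenous libraries (SD, n = 3 each). Its level rose in circulating cells (log2 difference 0.60, SE 0.12, adjusted p = 0.0167), and the call was lost without endogenous 1 at 0.0683.

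The c ring that turns with proton flow is encoded by 3 genes for one mature protein. Atp5g3 had 363, 398 and 415 in circulating, 369, 368 and 351 in irradiated and 211, 236 and 265 in endogenous libraries. It rose in circulating against endogenous cells (log2 difference 0.72, SE 0.12, adjusted p = 0.008), with an adjusted p of at most 0.0416 when any 1 library was left out. It also rose in irradiated against endogenous cells (0.62, SE 0.12, adjusted p = 0.0415), a call lost without each irradiated or endogenous library, at up to 0.22. Atp5g1 had 216, 179 and 296 in circulating, 213, 221 and 240.4 in irradiated and 127, 142 and 149 in endogenous libraries. It rose in circulating cells (log2 difference 0.70, SE 0.17, adjusted p = 0.0335), a call lost without circulating 3 and without each irradiated or endogenous library, at up to 0.117. Atp5g2 had 141, 138 and 149 in circulating, 164, 164 and 149 in irradiated and 105, 122 and 141 in endogenous libraries. Here endogenous 3 reached into the circulating range and the difference did not pass (log2 difference 0.23, SE 0.14, adjusted p = 0.313). Whether the differences of these genes are unequal was not tested. Their coding sequences are close, and how the authors' counting divided shared reads is not given in the sources used here.

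Atp5mpl, a small proteolipid of the synthase, had 122, 162 and 150.1 in circulating, 145, 157 and 158 in irradiated and 73.6, 82.1 and 101 in endogenous libraries. It rose against endogenous cells in both circulating (log2 difference 0.75, SE 0.16, adjusted p = 0.0198) and irradiated cells (0.85, SE 0.16, adjusted p = 0.04). The first call was lost without circulating 3, endogenous 1 and endogenous 2, at up to 0.0768. The second was lost without each irradiated or endogenous library, at up to 0.21. Atp5k, the e subunit at the dimer interface, had 54.9, 51.3 and 52.2 in circulating, 40.4, 48.4 and 44.5 in irradiated and 26.01, 33.6 and 33.1 in endogenous libraries. Its level rose in circulating against endogenous cells (log2 difference 0.76, SE 0.18, adjusted p = 0.0294), which was lost without circulating 3 and each irradiated or endogenous library, at up to 0.104. Atp5f1, Atp5h, Atp5j and Atp5l rose as well, with log2 differences from 0.45 to 0.55. Atp5s, coupling factor B, was the nuclear complex V member with a negative difference between circulating and endogenous cells (log2 difference -0.37, SE 0.30, adjusted p = 0.456). It had 54.9, 22.3 and 54.1 in circulating, 51.3, 54.7 and 55.9 in irradiated and 49.4, 59.7 and 49.5 in endogenous libraries, and circulating 2 stood alone. Of 6 further complex V assembly and regulatory genes 1 rose, while 5.33% of all genes tested did. It was Atpif1, the inhibitor of ATP hydrolysis by the synthase (log2 difference 0.51, SE 0.14, adjusted p = 0.0445). All 6 had positive differences (median 0.44).

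**Figure D3:**
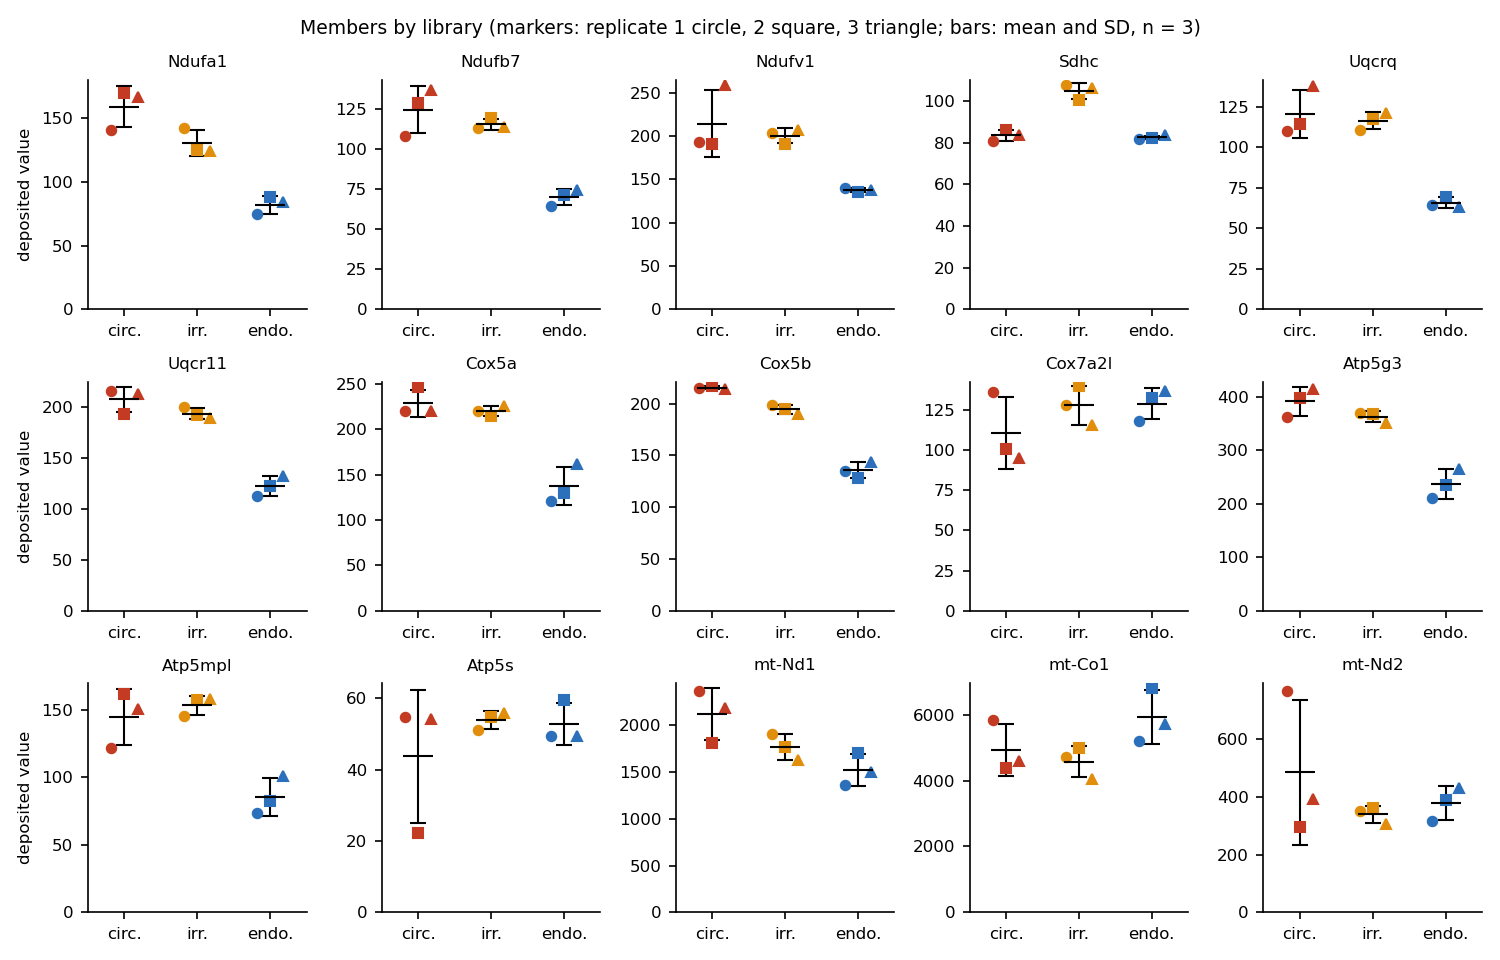
Deposited value (vertical axis, normalised signal, from 0) in each library of 15 members in circulating, irradiated and endogenous LSK cells; markers stand for the library number and bars for mean and SD (n = 3). In Uqcrq, Uqcr11, Cox5a, Cox5b and Atp5g3 the endogenous libraries lie below all others, in Sdhc the irradiated libraries (100 to 108) lie above all others, in Atp5s circulating 2 lies below all others, and in mt-Nd2 circulating 1 lies above and circulating 2 below all others.

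The 13 mitochondrially encoded members include the subunits that carry the proton pumps and the oxygen-reducing site. In circulating against endogenous libraries mt-Nd1, a core membrane subunit of complex I, was the 1 of 13 that rose (log2 difference 0.48, SE 0.12, adjusted p = 0.0358). That share of the 13, 7.69%, is near the 5.33% of all genes tested that rose. The values of mt-Nd1 were 2361, 1812 and 2180.2 in circulating, 1904, 1764 and 1627 in irradiated and 1359, 1699 and 1498 in endogenous libraries. All circulating values were above all endogenous ones in this 1 of the 13, and in 14.6% of all genes tested. The call of mt-Nd1 was lost when any library other than circulating 2 was left out, at an adjusted p of up to 0.133, and under library size scaling. For the others a missed threshold does not show equality: their 95% intervals for circulating against endogenous cells ran between -1.02 and 0.85 in all, with a median width of 0.59.

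Of the other complex I genes, mt-Nd2 had 767, 294 and 392 in circulating, 352, 361 and 306 in irradiated and 317, 388 and 431 in endogenous libraries, where circulating 1 was above every other library and circulating 2 below. For mt-Nd3 the values were 95.4, 49.7 and 51.6 in circulating, 76.4, 77.95 and 71.5 in irradiated and 65.7, 80.5 and 116 in endogenous libraries. Endogenous 3 was the highest of all 9, and the difference was the lowest of all members (log2 difference -0.44, SE 0.26, adjusted p = 0.318). In mt-Nd4 the values were 1380.4, 931 and 981 in circulating, 882, 803 and 768 in irradiated and 803, 1031 and 1029.9 in endogenous libraries. Circulating libraries lay above irradiated ones there, and the endogenous range overlapped both. The averages of mt-Nd5 were 806 ± 187 in circulating, 768 ± 61.9 in irradiated and 846 ± 77.3 in endogenous libraries. Those of mt-Nd4l were 94.4 ± 22.2 in circulating, 80.7 ± 2.60 in irradiated and 88.99 ± 10.9 in endogenous libraries (SD, n = 3 each). The averages of mt-Nd6, the gene on the opposite strand of the mitochondrial genome, were 229 ± 37.7 in circulating, 178 ± 17.9 in irradiated and 200.2 ± 36.5 in endogenous libraries. Circulating 1 had the highest value of its group in each of these 7 genes.

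The catalytic core of complex IV showed negative differences in both comparisons against endogenous cells. For mt-Co1, which holds the site of oxygen reduction, values were 5833, 4387 and 4579.6 in circulating, 4703, 4972 and 4039 in irradiated and 5211, 6818 and 5721 in endogenous libraries. Every irradiated library was below every endogenous one, as in 12.5% of all genes tested, and circulating 1 was inside the endogenous range. Neither difference passed (log2 difference -0.37, SE 0.13, adjusted p = 0.213 for irradiated; -0.26, SE 0.13, adjusted p = 0.225 for circulating). For mt-Co2 the averages were 2052 ± 209.7 in circulating, 1987 ± 177 in irradiated and 2306 ± 247 in endogenous libraries. For mt-Co3 they were 4033 ± 460.2 in circulating, 4279.9 ± 360.2 in irradiated and 4802 ± 626 in endogenous libraries (SD, n = 3 each). Neither passed: log2 differences between circulating and endogenous libraries were -0.17 (SE 0.11, adjusted p = 0.365) for mt-Co2 and -0.25 (SE 0.11, adjusted p = 0.187) for mt-Co3.

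Cytochrome b, encoded by mt-Cytb, had 3267, 2376 and 2862 in circulating, 2691, 2421 and 2275 in irradiated and 2399, 3105 and 2438 in endogenous libraries, with all groups overlapping. The proton channel subunit mt-Atp6 had 4609, 4152 and 4282 in circulating, 4086, 3961 and 3438 in irradiated and 3949, 5025 and 4226 in endogenous libraries. Its partner mt-Atp8 had 566, 552 and 561 in circulating, 508, 479.9 and 443 in irradiated and 513, 634 and 485 in endogenous libraries. In both, circulating libraries lay above irradiated ones and endogenous 2 was the highest of all 9. The reading frames of mt-Atp8 and mt-Atp6 overlap, as do those of mt-Nd4l and mt-Nd4, so that reads from the shared bases cannot be told apart.

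The ratio of nuclear to mitochondrially encoded signal within a library does not depend on how libraries were scaled. Over all members it was 0.664, 0.866 and 0.911 in circulating, 0.8003, 0.782 and 0.936 in irradiated and 0.5799, 0.508 and 0.579 in endogenous libraries, so that no endogenous library reached a circulating or irradiated one. Within complex IV it was 0.223, 0.286 and 0.276 in circulating, 0.250, 0.242 and 0.276 in irradiated and 0.157, 0.141 and 0.170 in endogenous libraries. Within complex V it was 1.24, 1.40 and 1.58 in circulating, 1.43, 1.40 and 1.73 in irradiated and 1.03, 0.909 and 1.05 in endogenous libraries, and both were without overlap against endogenous libraries. Within complex I, 0.904, 1.37 and 1.31 in circulating libraries overlapped 1.08, 0.962 and 0.978 in endogenous libraries through circulating 1, whereas irradiated libraries, at 1.29, 1.31 and 1.47, did not. The mitochondrially encoded members took 1.92% to 2.99% of all deposited signal in a library and the nuclear members 1.39% to 1.83%. The sums weight genes by level, and such a ratio shows unequal change, not which of the sums changed.

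**Figure D4:**
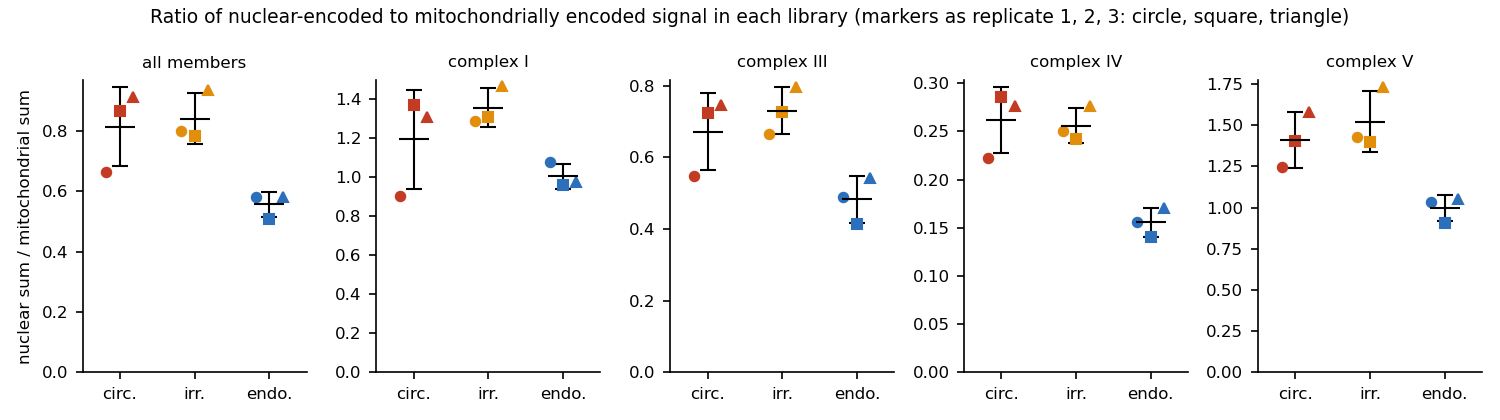
Ratio of the summed nuclear-encoded to the summed mitochondrially encoded value in each library (vertical axis, no unit, from 0), for all members and for complexes I, III, IV and V, in circulating, irradiated and endogenous LSK cells; markers stand for the library number and bars for mean and SD (n = 3). Over all members the ratio is 0.814 ± 0.132 in circulating, 0.839 ± 0.0839 in irradiated and 0.556 ± 0.0411 in endogenous libraries, and in complex I circulating 1 lies below all endogenous libraries while the other circulating libraries lie above them.

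Of 15 genes that act on mitochondrial DNA and its transcription none passed in any comparison, and the median log2 difference of circulating against endogenous libraries was -0.10. Tfam, which packages and activates the mitochondrial genome, had 108, 110.00 and 91.8 in circulating, 93.1, 114 and 86.5 in irradiated and 108, 76.4 and 91.1 in endogenous libraries (log2 difference 0.17, SE 0.17, adjusted p = 0.548 for circulating against endogenous). Polrmt, the mitochondrial RNA polymerase, had 36.1, 14.5 and 38.4 in circulating, 35.2, 33.3 and 35.01 in irradiated and 46.4, 25.9 and 25.1 in endogenous libraries, with overlap. Of 9 regulators of mitochondrial biogenesis none passed either (median -0.04). Between circulating and endogenous libraries 5 of the 9 differences were negative, and they ran from -1.50 to 0.25. In 2 of the 9 every circulating library lay below every endogenous one, as in 12.9% of all genes tested. Nrf1 had a log2 difference of 0.19 and Gabpa of 0.14 in that comparison, and Ppargc1a was at most 6.41 in any library.

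In irradiated against endogenous libraries 5 of the 87 nuclear members rose and none fell, while 0.472% of all genes tested rose and 0.131% fell, or 0.603% together. They were Uqcrq, Uqcr11, Cox5a, Atp5g3 and Atp5mpl, each of which also rose in circulating cells against the same endogenous libraries. The difference was positive in 84 of 87, as in 49.1% of all genes tested, and 62 had an unadjusted p under 0.05, as had 14.9%. In 74 nuclear members every irradiated library was above every endogenous one and in none below, while 15.2% of all genes tested showed the first of these patterns. By complex the medians of the nuclear members were 0.39 in I, 0.39 in II, 0.50 in III, 0.48 in IV and 0.41 in V. Of the 13 mitochondrially encoded members 12 had negative differences and none passed (median -0.16); mt-Nd1, at 0.22, was the exception in sign. The count of 5 depends on single libraries, being 18, 7 and 20 without circulating 1, 2 and 3. It was 0 without irradiated 1, 2 or 3, 0 without endogenous 1 or 2 and 1 without endogenous 3. The median stayed between 0.38 and 0.47. When only irradiated and endogenous libraries were fitted, 33 rose.

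Just outside the threshold of 0.05 stood Ndufb7 (adjusted p = 0.0502, log2 difference 0.71) and Cox6a1 (0.0504, 0.66). Ndufa1 had 0.66 (0.0619), Ndufa10 0.60 (0.0619) and Cox5b 0.52 (0.0619) in irradiated against endogenous cells. Of the 15 G2/M genes 5 rose in this comparison, as did 5 of the 10 granulocyte-monocyte progenitor genes and 0.472% of all genes tested. None of the 7 stem cell, 10 erythroid or 6 B lineage genes passed. The part of these marker genes in the differences was not tested.

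Between circulating and irradiated libraries none of the 100 members passed under limma, where 0.029% of all genes tested did (0.0218% higher and 0.00726% lower). At an unadjusted p under 0.05 there were 2 members, Sdhc and mt-Nd4, against 11.4% of all genes tested, and limma-voom on the recovered estimated counts also called 0 nuclear members. The nuclear median was 0.05, with 59 of 87 differences positive against 47.1% of all genes tested, and changed sign to -0.02 under library size scaling and to -0.01 without circulating 3. The mitochondrial median was 0.19, or 0.13 under that scaling, and it was 0.03 without circulating 1. Circulating libraries lay above irradiated ones without overlap in 11 nuclear members (Ndufs3, Ndufa5, Ndufa6, Ndufa8, Ndufc1, Ndufs5, Ndufv3, Sdha, Uqcrb, Cox5b and Atp5k) and below in 4 (Ndufs8, Ndufb2, Sdhc and Atp5g2), against 7.46% and 9.26% of all genes tested. Among mitochondrially encoded members, mt-Nd4, mt-Nd6, mt-Atp6 and mt-Atp8 lay above without overlap (log2 difference 0.40, SE 0.15, adjusted p = 0.374 for mt-Nd4).

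The size that these libraries could have shown is given by the intervals. For Ndufa5, a subunit of the matrix arm of complex I, values were 89.5, 75.4 and 82.6 in circulating and 73.2, 63.9 and 70.2 in irradiated libraries (log2 difference 0.25, SE 0.15, adjusted p = 0.555; 95% interval -0.07 to 0.58). Ndufa1 differed by 0.28 between circulating and irradiated libraries (95% interval -0.02 to 0.58) and Uqcr11 by 0.10 (-0.16 to 0.36). The median width of such an interval was 0.61 for nuclear members, and these data do not show that circulating and irradiated cells are alike.

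Compared per kilobase of annotated exon length, a rough measure since the union of exons was used, the levels of the members differed widely. The highest was mt-Atp6 at 6156 per kilobase, followed by mt-Co3 (5576), mt-Co1 (3327), mt-Co2 (3093), mt-Atp8 (2583), mt-Cytb (2315), mt-Nd1 (1881) and mt-Nd4 (694). Atp5b was the highest nuclear member (476), in place 9, followed by mt-Nd5 (442), mt-Nd6 (389.6) and mt-Nd2 (386), then Cox6b1 (320.2) and Ndufa4 (310.3). The complex I assembly factors Ndufaf2 (9.21) and Ndufaf5 were the lowest. The median level was 92.1 per kilobase for nuclear members, 1881 for mitochondrially encoded ones and 5.65 for all other genes tested.

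Nuclear members are short and abundant, and the medians of other genes of that kind were also positive against endogenous libraries. Among genes with a mean value of at least 50 the median log2 difference of circulating against endogenous libraries in non-members was 0.28 under 1 kb, 0.31 from 1 to 2 kb, 0.22 from 2 to 4 kb and 0.05 from 4 kb of exon length. Nuclear members with a mean value of at least 50 had 0.53, 0.46, 0.45 and 0.49 in the same length classes (16, 31, 21 and 11 genes). Within this level class, levels were not matched between members and other genes. In that level class 49.4% of the nuclear members were called higher in circulating against endogenous libraries, and 11.6% of the 4644 other genes. For irradiated against endogenous libraries the medians of non-members were 0.29, 0.30, 0.19 and 0.03 and those of nuclear members 0.51, 0.39, 0.40 and 0.44. Between circulating and irradiated libraries they were -0.01, 0.03, 0.04 and 0.02 for non-members and 0.03, 0.04, 0.09 and 0.06 for nuclear members. The part of length and level in the members' differences was not tested further.

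**Figure D5:**
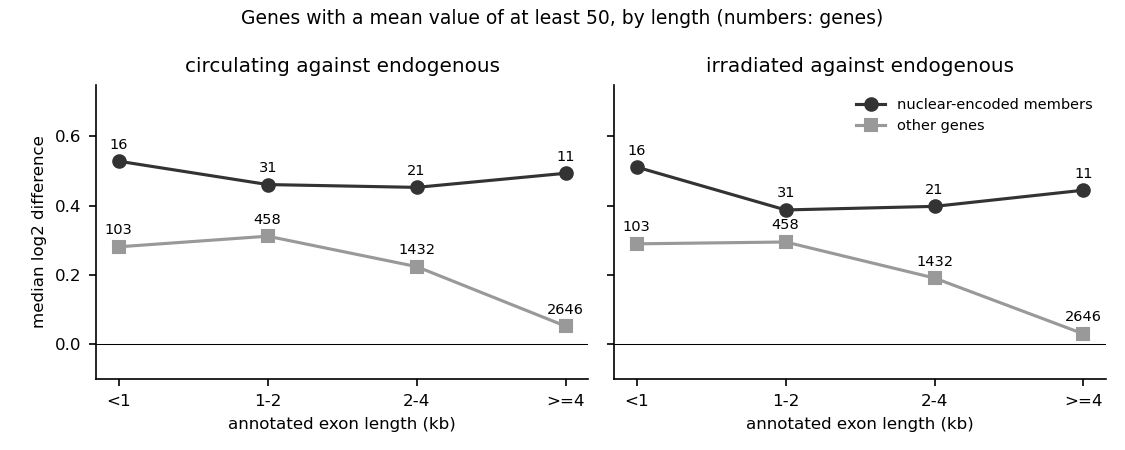
Median log2 difference (vertical axis, log2 of value + 1) of nuclear-encoded members and of all other genes with a mean value of at least 50, by annotated exon length in kilobases (horizontal axis, 4 classes), for circulating and irradiated against endogenous libraries; the numbers give the genes behind each point. Other genes go from 0.28 in the shortest to 0.05 in the longest class for circulating cells, while nuclear members stay between 0.45 and 0.53.

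Some values may hold reads of other genes. The library chemistry does not mark strand, and 29 members share exon bases with another gene in the table, 21 of them nuclear. Among the nuclear members named here these are Atp5f1, Atp5j, Cox4i1, Cox5a, Cox6c, Ndufa3, Ndufa11, Ndufab1, Ndufb2, Ndufb6, Ndufs1, Ndufs3, Ndufs6 and Uqcrb. The mitochondrially encoded ones are mt-Atp6, mt-Atp8, mt-Co1, mt-Co3, mt-Nd4, mt-Nd4l, mt-Nd5 and mt-Nd6. Overlaps of any length were counted, and only reads that lie within the shared bases of such a pair cannot be told apart. Of 13 annotated pseudogenes or other transcripts that carry names of this family none is in the table, so reads shared between members and such copies were not resolved here.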

How the data were processed

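RNA was extracted with a low-input kit, amplified as cDNA with SMART-Seq v4 and made into Nextera XT libraries, per the labels' protocols; this chemistry does not mark strand. Per the submitters' processing notes, the tools were CASAVA, RSEM 1.3.1 and limma and the genome build mm10; the notes assign none of them a step. Which annotation release, scaling and gene filter were used is not given in the sources used here. Deposited values are a normalised signal for 14461 Ensembl genes in 9 libraries, made by the authors: every value equals an estimated count with 2 decimals plus 0.5, times a constant of its library. From 11.0% to 21.3% of the recovered estimated counts were whole, so these are not raw counts, and signal was tested on a log scale.

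Symbols came from a mouse annotation of the mm10 assembly and matched 14405 genes. Genes with a value of at least 1 in at least 3 libraries (13771) entered limma 3.58.1 (R 4.3.3) as log2(value + 1), with an intensity trend and robust moderation, all 9 libraries in 1 fit without covariates and Benjamini-Hochberg adjustment over all genes; an adjusted p under 0.05 was called. The fit was tested on simulated data. Sums, ratios and per-kilobase levels are descriptions with no test. The alternatives were other scalings, pseudocounts and filters, library weights, fits of only the groups compared, a replicate block, limma-voom on recovered estimated counts and the omission of each library. No 2 libraries held the same values. The members and all gene lists were chosen with earlier results of these data known. Named members are, within each complex, those with the lowest p in each comparison and the highest p, all mitochondrially encoded genes and the isoforms of shared subunits; further members that passed are named to complete a count. Some genes are not reported here.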

Additional observations from a re-analysis of the deposited data

How the results depend on the processing

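With library size as the scaling, 13 nuclear members rose in circulating against endogenous cells and 1 in irradiated against endogenous cells, and with library size over nuclear genes alone 11 and 0. The medians under these scalings were 0.27 and 0.27 for nuclear members, -0.15 and -0.16 for mitochondrially encoded members and -0.22 and -0.23 for all genes in circulating against endogenous cells, 0.28 and 0.27 for nuclear members and -0.13 and -0.14 for all genes in irradiated against endogenous cells, and -0.086 and -0.085 for all genes between circulating and irradiated cells, where 11 and 11 genes were called in all. The cause was not tested. With library weights, 494 of all genes, 19 nuclear and 0 mitochondrially encoded members were called in circulating against endogenous cells, and 897 genes and 47 nuclear members in irradiated against endogenous cells. With only the groups compared in the fit these were 239, 6 and 0 for circulating, and 757 and 33 for irradiated against endogenous cells. A minimum value of 5 in 3 libraries gave 13 genes between circulating and irradiated cells and 138 genes and 11 nuclear members in irradiated against endogenous cells. Limma-voom on recovered estimated counts called 8 genes between circulating and irradiated cells and 9 nuclear members in irradiated against endogenous cells. The median of all genes was -0.058 with a pseudocount of 0.1, -0.0036 with the minimum of 5 and -0.062 with limma-voom in circulating against endogenous cells, 0.020 with that minimum in irradiated against endogenous cells, and -0.011 with median-of-ratios scaling, -0.038 with a pseudocount of 0.1 and -0.039 with limma-voom between circulating and irradiated cells.

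Whether the library numbers pair the libraries is not known. Circulating and irradiated libraries share the title codes DD1 to DD3, and the correlations of deviations in these pairs were 0.050, 0.031 and 0.182. Over all pairs with the same number they ran from -0.023 to 0.182, and circulating 1 correlated better with irradiated 2 (0.106) than with irradiated 1 (0.050). The replicate block in the fit of all libraries gave 33 nuclear and 0 mitochondrially encoded members in circulating against endogenous cells, 3 nuclear members in irradiated against endogenous cells and 9 genes between circulating and irradiated cells. With the replicate block and only the groups compared there were 65 genes, 0 nuclear and 0 mitochondrially encoded members for circulating, and 496 genes and 20 nuclear members for irradiated against endogenous cells, and 2 genes between circulating and irradiated cells.

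Leaving out each library in turn gave 257 to 2224 genes, 6 to 43 nuclear and 0 to 1 mitochondrially encoded members in circulating against endogenous cells, with medians of 0.42 to 0.50 for nuclear members, -0.11 to 0.16 for mitochondrially encoded members and -0.048 to -0.025 for all genes. Between circulating and irradiated cells it gave 3 to 137 genes and 0 members of either kind, with medians of -0.0090 to 0.075, 0.028 to 0.24 and -0.030 to -0.0084 in the same order. In irradiated against endogenous cells it gave 6 to 263 genes, 0 to 20 nuclear and 0 mitochondrially encoded members, with medians of 0.38 to 0.47, -0.27 to -0.098 and -0.015 to -0.0021. Of the 18 named nuclear members that rose in circulating against endogenous cells, 6 (Ndufa1, Ndufb7, Uqcrq, Uqcr11, Cox5b and Atp5g3) kept the call under every omission. No named member changed direction while called. The depth of circulating 2, the shallowest library, limits the low members most.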

Other observations

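Genes that feed the respiratory chain or use its product were also compared. Of 13 citric acid cycle enzymes tested, 4 rose and none fell in circulating against endogenous libraries under limma, with a median log2 difference of 0.40. Over all genes tested 5.33% rose and 3.3% fell. Among genes outside the respiratory chain with a mean value of 100 or more, 16.9% rose. They were Sucla2, a succinyl-CoA ligase subunit (214, 219 and 235 in circulating, 185, 182 and 194 in irradiated and 142, 154 and 151 in endogenous libraries; log2 difference 0.58, SE 0.11, adjusted p = 0.0143), Mdh2, the malate dehydrogenase (log2 difference 0.57, SE 0.14, adjusted p = 0.0342), Fh1, the fumarase (log2 difference 0.67, SE 0.17, adjusted p = 0.0386), and Cs, the citrate synthase (log2 difference 0.64, SE 0.18, adjusted p = 0.0485). Among circulating libraries, number 1 was the lowest for each of these 4 genes.

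Of 11 coenzyme Q synthesis genes none rose and Coq8a, a regulatory kinase-like protein, fell: it had 82.1, 38.7 and 72.9 in circulating, 97.6, 87.4 and 75.2 in irradiated and 145, 109 and 104 in endogenous libraries (log2 difference -0.93, SE 0.26, adjusted p = 0.0476). Of 6 carriers and channels that exchange ATP, ADP and phosphate with the cytosol, Slc25a5, the ADP/ATP carrier of dividing cells, rose (log2 difference 0.62, SE 0.14, adjusted p = 0.0232), as did the outer membrane channel Vdac2 (log2 difference 0.44, SE 0.12, adjusted p = 0.0437). Vdac1, its close relative, fell, with 122, 114 and 139 in circulating, 175, 178 and 184 in irradiated and 206, 246 and 162 in endogenous libraries and no overlap between circulating and endogenous ones (log2 difference -0.69, SE 0.16, adjusted p = 0.0263). Beside these counts stand the 5.33% of all genes tested that rose and the 3.3% that fell in circulating against endogenous libraries. None of these 30 genes passed in irradiated against endogenous or in circulating against irradiated libraries.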
